A study of Mus musculus with 238 samples.

Results

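The medulla oblongata of 9 female mice was compared between a restricted and an unrestricted diet. The members are the 9 medulla libraries of the diet cohort among the 238 libraries of the series, chosen by the region and treatment in their labels, and all genes of the count table were examined in them. All mice were C57BL/6JN females of 19 months. A total of 5 were dietary restricted (aDR, mice 61, 62, 64, 65 and 67) and 4 were fed ad libitum (AL, mice 63, 66, 68 and 69), and the labels name no transgene or further agent in either group. Each library is bulk RNA of homogenised tissue from 1 mouse, so fewer cells of a type and less RNA per cell cannot be told apart. The labels give neither the hour at which tissue was taken nor the degree of the restriction.

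The medulla is the lowest part of the brainstem. It holds the neurons that drive breathing, heart rate and swallowing, the motor neurons of several cranial nerves, and the dorsal vagal complex, where signals from the gut about food reach the brain. Food restriction is known to raise circulating corticosterone, to shift the timing of daily rhythms and to lower body temperature in mice. Glucocorticoids act through nuclear receptors that switch on genes such as Fkbp5 and Zbtb16, the circadian clock is a loop of activators (Arntl with Clock) and repressors (Per, Cry), and cooling is known to raise the RNA-binding proteins Rbm3 and Cirbp.

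The libraries held between 1.46 M (aDR mouse 62) and 15.3 M (aDR mouse 65) counts, and mitochondrial genes took between 2.83% and 3.56% of them. The labelled region was checked against its markers. Slc6a5, the glycine transporter of hindbrain inhibitory neurons, stood between 54.7 and 142 CPM (counts divided by the TMM-scaled library size in M), and Hoxb3, a gene of hindbrain position, between 7.02 and 15.2 CPM. The forebrain gene Emx1 was at most 0.336 CPM in the 9 libraries. A list of 10 forebrain genes summed to 36.3 to 114 CPM in restricted and 66.4 to 163 CPM in freely fed mice. AL mouse 69 was the highest (exact permutation p 0.302, adjusted over 12 measures 0.724). The caudal Hox genes, which mark the end of the medulla next to the spinal cord, varied far more than the diet groups differed. The summed level of Hoxa5, Hoxb4, Hoxb5, Hoxb6, Hoxc4 and Hoxc5 was 14.04, 218, 7.59, 32.3 and 153 CPM in aDR mice 61, 62, 64, 65 and 67, and 72.9, 85.6, 60.7 and 164 CPM in AL mice 63, 66, 68 and 69. Transcripts of the pituitary hormones Prl, Gh and Cga summed to 2427 CPM in aDR mouse 62, 1661 CPM in aDR mouse 67 and 981 CPM in AL mouse 66, and to at most 90.5 CPM in the other 6. Cerebellar genes were also high in AL mouse 66, where Cbln3 of granule cells was at 15.4 CPM against at most 2.48 CPM elsewhere, and Gabra6 at 8.15 CPM against at most 0.0911 CPM. Those 3 libraries stand apart. Leaving them out, an alternative chosen after seeing the data, keeps 3 mice a diet whose caudal Hox sums do not overlap (7.59 to 32.3 CPM restricted, 60.7 to 164 CPM freely fed). Of 13 hindbrain position genes, 11 were then lower at an unadjusted p under 0.05 (median -1.11). In the edgeR fit to all 9 libraries the count was 0 (median -0.47), and it was 0 with DESeq2. It was 10 (median -0.91) in limma voom with sample quality weights. In limma voom over all brain libraries with the mouse as replicate block it was 9 (median -0.75). Without aDR mouse 67 alone it was 6 (median -0.95), and without any other 1 library 0 or 1. Without the 3 libraries diet and position within the medulla cannot be told apart, and this holds for every value below given without them. The part of position in the voom fits was not tested.

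**Figure D1:**
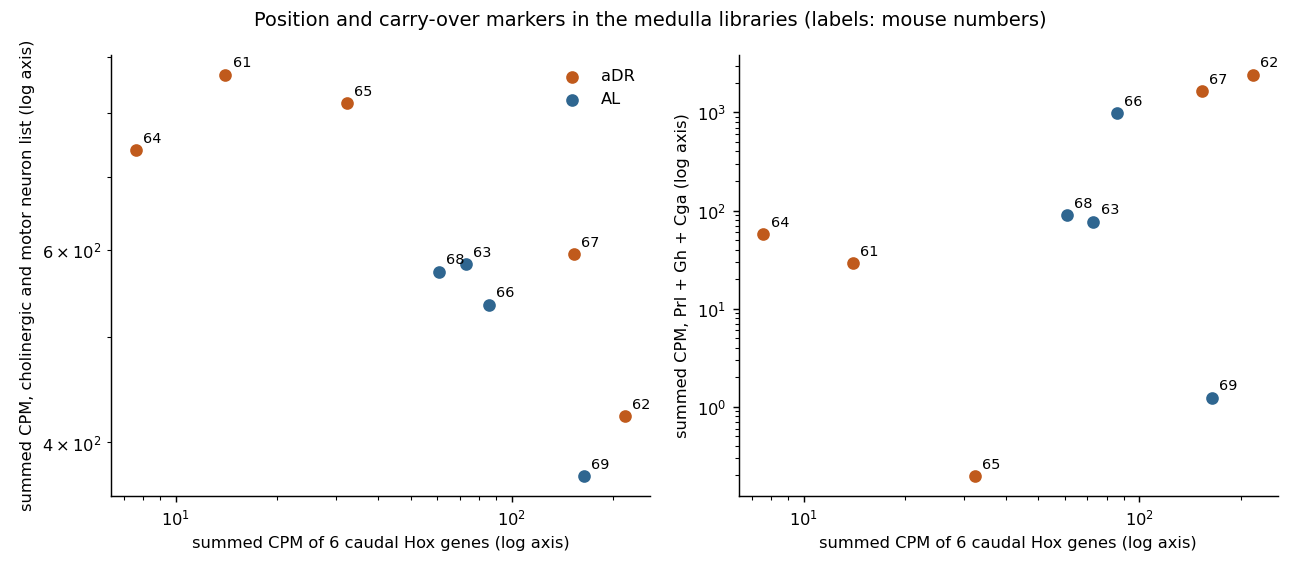
Summed CPM of 6 caudal Hox genes (x axis, log scale) against the summed CPM of the cholinergic and motor neuron list (left) and of the pituitary hormone genes Prl, Gh and Cga (right, both on a log scale) in the 9 medulla libraries, labelled by mouse number. The cholinergic sum is highest in aDR mice 61, 64 and 65, which have the lowest Hox sums, and the pituitary sum is highest in aDR mice 62 and 67 and AL mouse 66.

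In the edgeR test a single gene, Plin4, was called between the diets in medulla, and it was higher in restricted mice. Of 14006 genes tested, 1 was called at an adjusted p under 0.05, which is 0.00714% of them. An unadjusted p under 0.05 was found for 947 genes (6.76%, Plin4 included), of which 455 were higher (3.25%) and 492 lower (3.51%) in restricted mice. In 345 genes (2.46%) the levels of the diets did not overlap, with the restricted mice higher in 192 (1.37%) and lower in 153 (1.09%). The median log2 change over all genes was 0.00032, and 50.1% of genes had a change above 0. The counts of list members below are to be read beside these shares. The genes next to Plin4 in order of p included targets of glucocorticoids, clock genes, cold-inducible genes and genes of astrocytes on the higher side, and genes of the heat shock response, of vessels and of interferon signalling on the lower side, and these groups are described in turn.

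Plin4 encodes perilipin 4, a protein that coats lipid droplets, and lies on chromosome 17 (chr17:56100587-56109948, GRCm38.p6). Its level was 26.0, 19.3, 24.2, 11.3 and 31.3 CPM in aDR mice 61, 62, 64, 65 and 67, and 2.71, 2.17, 4.61 and 3.77 CPM in AL mice 63, 66, 68 and 69. Every restricted mouse was above every freely fed mouse, and the lowest restricted value, in mouse 65, was still more than double the highest freely fed value, in mouse 68. The means were 22.4 ± 7.54 CPM (SD, n = 5) and 3.32 ± 1.09 CPM (SD, n = 4), which the edgeR quasi-likelihood test put at a log2 change of 2.76 with an SE of 0.31 (adjusted p 0.0139). The call ended without any 1 of aDR mice 61, 62 or 64 or AL mice 63, 66 or 69 (adjusted p 0.0553 to 0.0887) and without the 3 libraries with pituitary transcripts (log2 change 2.41, adjusted p 0.226).

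The other lipid and fasting genes had small changes beside that of Plin4. Of the 21 tested genes of lipid droplets, fasting and ketone use, 18 were higher in restricted mice, and the median change was 0.14. An unadjusted p under 0.05 was found for 2, both higher. Among all genes, 50.1% had a change above 0 and 3.25% were higher at such a p. Of the 2, the first was Plin4 itself. The second was Pnpla2, the lipase that opens stored fat, at 0.35 (SE 0.10, adjusted p 0.636), with 58.6, 54.5, 51.5, 44.5 and 64.5 CPM in the restricted and 39.95, 40.8, 46.8 and 43.1 CPM in the freely fed mice. Its groups overlapped through aDR mouse 65 and AL mouse 68. The other perilipins, Plin2, Plin3 and Plin5, had changes of -0.21, 0.08 and 0.24 without a call. Angptl4, a secreted lipase inhibitor known to respond to fasting, was 0.73 higher, but without aDR mouse 67, which held 5.79 CPM against at most 2.67 CPM in the other restricted mice, the change was 0.29. All 17 cholesterol synthesis genes had an unadjusted p above 0.05, with changes between -0.12 and 0.17.

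Fmo2, a flavin monooxygenase that oxidises foreign compounds (chr1:162874317-162898758), came second by p. It stood at 13.4, 9.66, 10.6, 8.37 and 19.1 CPM in the restricted and 2.41, 2.72, 3.78 and 4.29 CPM in the freely fed mice, with no overlap. It was 1.89 higher on the log2 scale (SE 0.27, edgeR adjusted p 0.0747), so that it was not called. Etnppl, an astrocyte enzyme that breaks down phosphoethanolamine, stood at 106, 91.1, 93.5, 87.6 and 140 CPM in the restricted and 64.5, 60.2, 63.2 and 59.3 CPM in the freely fed mice. The freely fed mice lay within a narrow band, and all restricted mice were above it, 0.76 higher on the log2 scale (SE 0.12, edgeR adjusted p 0.162). Plekhf1 (0.58, SE 0.10, adjusted p 0.205) likewise did not overlap. Itgad, an integrin chain of immune cells, named after its values were seen because it is too low for the rule on named genes, stood between 1.57 and 2.83 CPM in the restricted and between 0.15 and 0.81 CPM in the freely fed mice. Its adjusted p was 0.162, and it rested on 1 to 32 reads a library.

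**Figure D2:**
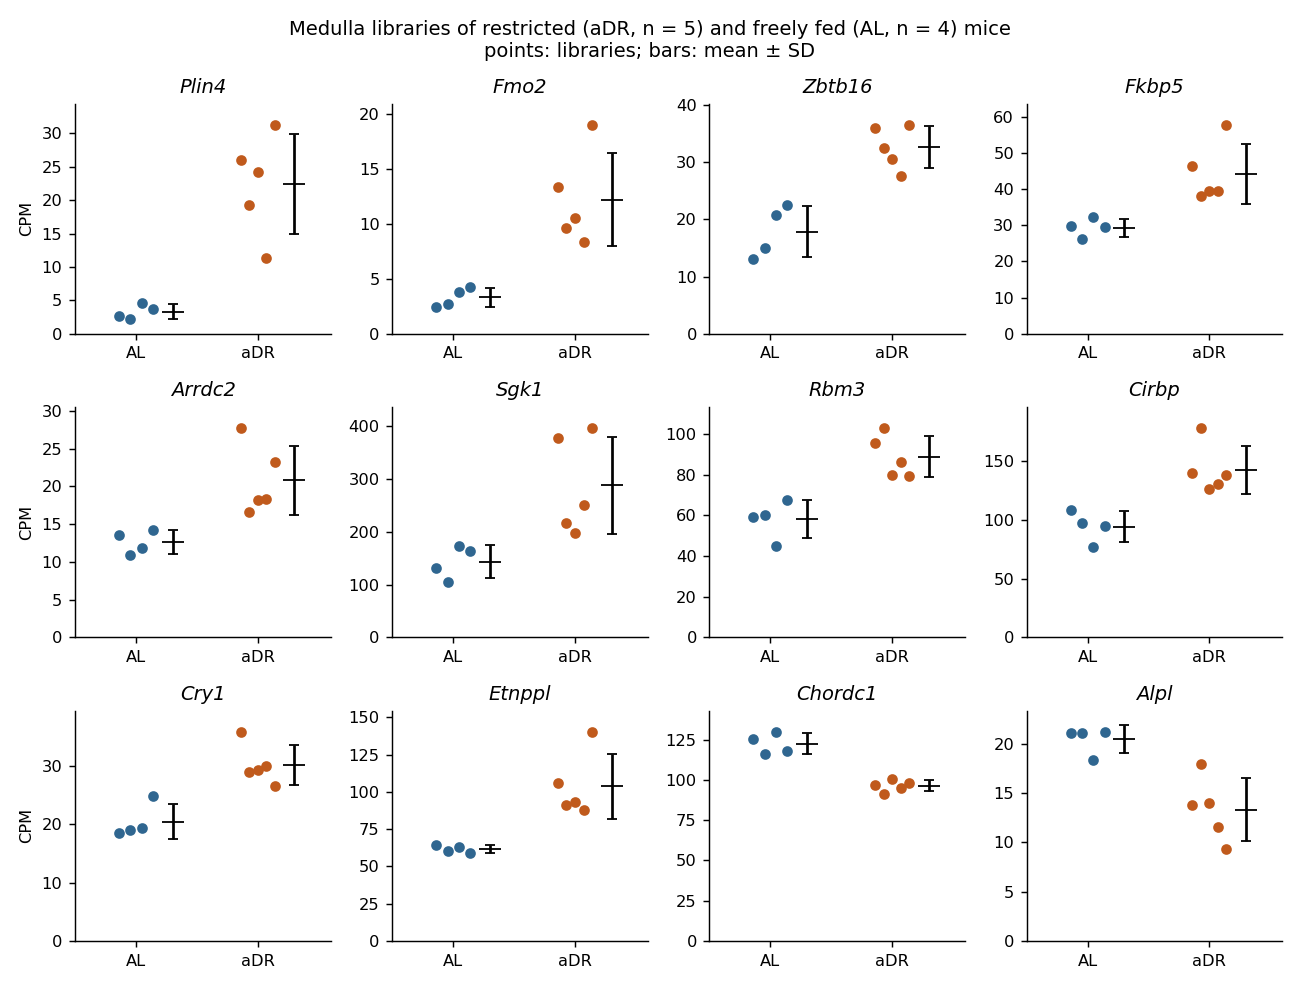
CPM (y axes, from 0) of 12 genes in the medulla libraries of 4 freely fed (AL, blue) and 5 restricted (aDR, orange) mice; points are libraries, bars the mean ± SD. In all 12 genes the diets do not overlap, Chordc1 and Alpl being lower in restricted mice and the other 10 higher, and of the 12 only Plin4 passed the adjusted test.

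Of the 44 lists examined, the glucocorticoid-responsive genes had the most members on the higher side at an unadjusted p under 0.05. This count depends on list size, and the cold-inducible list had 2 of 3 and the cholinergic list 5 of 9 members there. Lists were chosen with earlier results of these data known. Of the 21 glucocorticoid genes tested, 20 were above 0, 11 had an unadjusted p under 0.05, all of them higher, and 9 did not overlap between the diets. Over all genes, 3.25% were higher at such a p and 1.37% were higher without overlap. The median change was 0.25, against 0.00032 over all genes. Plin4 belongs to this list as well. Zbtb16, a zinc finger transcription factor, stood at 35.9, 32.4, 30.6, 27.7 and 36.6 CPM in the restricted and 13.1, 15.0, 20.7 and 22.5 CPM in the freely fed mice, differing by 0.85 on the log2 scale (SE 0.15, edgeR adjusted p 0.205). Fkbp5, a chaperone that dampens the glucocorticoid receptor, stood at 46.4, 38.0, 39.4, 39.4 and 57.8 CPM against 29.7, 26.1, 32.2 and 29.4 CPM, a change of 0.61 (SE 0.12, adjusted p 0.325). Neither gene overlapped between the diets, and aDR mice 61 and 67 were the highest in both. Sgk1, a kinase of salt and stress responses, showed the same 2 mice apart, with 377 and 396 CPM against 217, 198 and 250 CPM in the other restricted mice and 105 to 172 CPM in the freely fed mice (change 1.01, SE 0.22, adjusted p 0.341). Arrdc2 was 0.74 higher (adjusted p 0.32), Hif3a, a member of the hypoxia-inducible factor family, 1.37 (adjusted p 0.481), and Tsc22d3, which encodes the glucocorticoid-induced leucine zipper, 0.32 (adjusted p 0.532). The members with a change near 0 included Per1 (0.06) and Dusp1 (0.02). The 6 tested receptors and enzymes of corticosteroids, Nr3c1 among them, had 0 members with an unadjusted p under 0.05. With the 3 pituitary-positive libraries left out, 8 of the 21 had an unadjusted p under 0.05, all higher.

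Clock genes lay on both sides of 0, and 0 of the 16 tested passed the adjusted test. At an unadjusted p under 0.05, 4 were higher and 2 lower, and the list's median was 0.0012. The shares over all genes were 3.25% and 3.51%. Cry1, a repressor of the loop, stood at 35.9, 29.0, 29.3, 29.96 and 26.6 CPM in the restricted and 18.5, 19.1, 19.4 and 25.0 CPM in the freely fed mice, with no overlap but with AL mouse 69 close to aDR mouse 67 (change 0.55, SE 0.11, edgeR adjusted p 0.341). Per2, another repressor, stood between 17.6 and 20.2 CPM against 12.9 to 16.4 CPM (0.37, adjusted p 0.606). Ciart, which represses the Clock and Arntl pair, stood at 30.8, 26.9, 23.4, 25.8 and 27.5 CPM against 23.4, 19.8, 20.2 and 22.8 CPM, a change of 0.31 (SE 0.096, adjusted p 0.646). Arntl, the activator, ran the other way, with 10.9, 9.66, 12.3, 12.6 and 8.39 CPM against 14.3, 14.9, 15.0 and 14.3 CPM (-0.41, SE 0.12, adjusted p 0.636). Nr1d1, which represses Arntl, was 0.21 lower (adjusted p 0.669) and overlapped. Among the 7 output genes, which the clock drives, Tef (0.21) and Tsc22d3 were higher and Nfil3 (-0.46) lower at an unadjusted p under 0.05, and Dbp was at 0.07 (adjusted p 0.942).

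The promoters of Cry1 and Ciart are printed because these clock repressors carry the E-box, CACGTG, the element that Clock and Arntl bind. Sequences are those of RefSeq (GRCm38.p6) up to the start of the gene, 5′ to 3′ on the gene's strand, with the E-box in capitals; Cry1 is read from chr10:85185055-85185304 and Ciart from chr3:95882258-95882478, both on the minus strand.
Cry1: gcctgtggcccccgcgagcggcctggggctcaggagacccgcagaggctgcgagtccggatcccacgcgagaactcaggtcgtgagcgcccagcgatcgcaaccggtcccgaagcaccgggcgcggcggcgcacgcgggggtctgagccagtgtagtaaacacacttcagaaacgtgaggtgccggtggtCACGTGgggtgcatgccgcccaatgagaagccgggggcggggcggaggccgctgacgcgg
Ciart: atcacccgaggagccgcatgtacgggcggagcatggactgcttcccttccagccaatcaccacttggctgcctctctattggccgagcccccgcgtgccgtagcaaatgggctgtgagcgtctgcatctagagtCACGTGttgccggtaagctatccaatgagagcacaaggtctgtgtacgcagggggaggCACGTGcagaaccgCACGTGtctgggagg
Ciart held 3 copies and Cry1 held 1. The motif was searched on both strands, which are the same for a palindrome, in 250 bases before the start in the RefSeq table; for Ciart the printed 221 bases, which hold all 3 copies, leave out those inside the annotated gene. It was in 4 of 13 clock promoters with an entry (30.8%) and in 8.32% of the 10981 promoters of tested genes. Of the glucocorticoid list, 2 of 19 promoters held the half-site AGAACA on either strand (10.5%), against 10.6% of all. These matches are descriptions of letters in the window.

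The 2 cold-inducible genes Rbm3 and Cirbp were higher in every restricted mouse than in any freely fed mouse. Rbm3 (chrX:8138975-8145880) stood at 95.3, 103, 79.8, 86.3 and 79.6 CPM in the restricted and 59.2, 60.2, 45.04 and 67.4 CPM in the freely fed mice, differing by 0.59 on the log2 scale (SE 0.11, edgeR adjusted p 0.278). Cirbp stood at 140, 178, 126.2, 131 and 138 CPM against 108, 97.2, 77.1 and 94.5 CPM, a change of 0.58 (SE 0.11, adjusted p 0.278). Rtn3, the third of the list, was at 0.10. On the lower side, Chordc1, a partner of the chaperone Hsp90, stood at 97.0, 91.1, 100, 95.3 and 98.0 CPM against 125.7, 116, 130 and 118 CPM (-0.34, SE 0.059, adjusted p 0.205). Hsf1, the transcription factor of the heat shock response, stood between 32.8 and 37.1 CPM against 41.97 to 46.5 CPM (-0.32, SE 0.068, adjusted p 0.341). Both were free of overlap. Of 12 heat shock chaperone genes, Hsf1 and Cryab (-0.27) were lower and 0 were higher at an unadjusted p under 0.05, while Hspa1a, the inducible Hsp70, was at -0.27 with an unadjusted p of 0.0875. Of 15 genes of the unfolded protein response, 11 were below 0, with a median of -0.11. At an unadjusted p under 0.05, Calr (-0.24) and Atf4 (-0.20) were lower and Dnajb9 (0.13) higher, against 3.51% and 3.25% of all genes. The count of lower members was 5 without aDR mouse 67, 4 without AL mouse 63 and 1 without any 1 of the others except aDR mouse 62 (2), and it was 5 without the 3 pituitary-positive libraries and 6 with voom sample quality weights.

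Of the interferon-response genes, 0 passed the adjusted test, but most were lower. Of 14 tested, 13 were below 0, 8 had an unadjusted p under 0.05, all lower, and the median was -0.44, but only Rtp4 was free of overlap between the diets. Among all genes, 3.51% were lower at such a p and 1.09% were lower without overlap. Ifitm3, an antiviral membrane protein, stood at 26.2, 14.5, 20.1, 15.96 and 19.4 CPM in the restricted and 24.6, 32.9, 32.0 and 45.5 CPM in the freely fed mice (change -0.80, SE 0.18, edgeR adjusted p 0.376). Irf7, the transcription factor that amplifies the response, stood at 4.20, 4.14, 7.02, 4.71 and 4.62 CPM against 9.05, 6.16, 11.4 and 5.87 CPM (-0.64, SE 0.23, adjusted p 0.669). Bst2, which tethers budding virus, was at -0.63 (adjusted p 0.664) and Isg15, a ubiquitin-like protein, at -0.96 (SE 0.36, adjusted p 0.669) on 3 to 29 reads a library; Isg15 and Ifit1 are named for their promoters after their values were seen. AL mice 63 and 68 were the highest in Irf7 and AL mice 66 and 69 lay nearer the restricted mice. The count of members lower at an unadjusted p under 0.05 was 4 without AL mouse 68 and 12 without AL mouse 66. It was 10 without the 3 pituitary-positive libraries. The 12 genes of homeostatic microglia and the 21 of complement, MHC class I and disease-associated microglia had 0 members with an unadjusted p under 0.05 and medians of 0.0068 each. The second of these lists depended on aDR mouse 67: without it 8 of the 21 were lower (median -0.35), without AL mouse 63 2 were, and without the 3 pituitary-positive libraries 3 were (median -0.30).

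**Figure D3:**
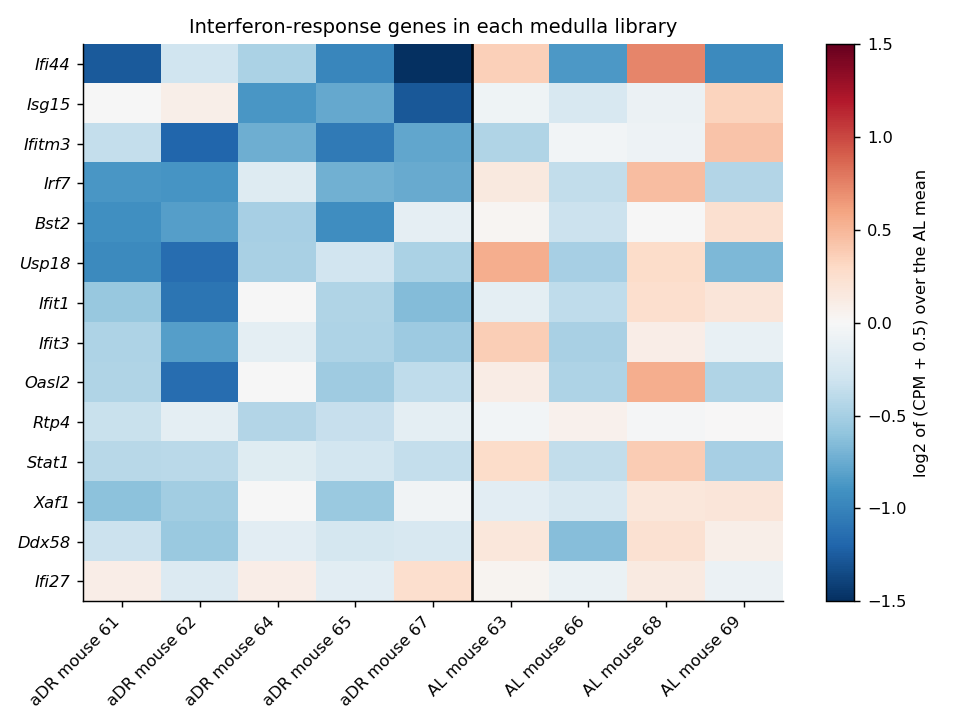
Log2 of (CPM + 0.5) over the mean of the 4 freely fed libraries (colour, blue lower and red higher) for 14 interferon-response genes (rows) in the 5 restricted libraries (left of the line) and the 4 freely fed ones. Restricted libraries are mostly blue, but AL mouse 66, and for some genes AL mouse 69, are blue as well, and Ifi27, with a change of 0.04, stands out at the bottom.

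Promoters of 3 interferon-response genes are printed because they hold the core of the interferon-stimulated response element, a GAAA, any 2 bases and another GAAA, which interferon regulatory factors such as Irf7 read. The core is in capitals, and lies on the opposite strand in Ifit1, where GAAA reads TTTC. The windows are chr19:34640639-34640888 (plus strand), chr4:156200819-156201068 (minus) and chr8:71537473-71537722 (minus), from RefSeq, GRCm38.p6.
Ifit1: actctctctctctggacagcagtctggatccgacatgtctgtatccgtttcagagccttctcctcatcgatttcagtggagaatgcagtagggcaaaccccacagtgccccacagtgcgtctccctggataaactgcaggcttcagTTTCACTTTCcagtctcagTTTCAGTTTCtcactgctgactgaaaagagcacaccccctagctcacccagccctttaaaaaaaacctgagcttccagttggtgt
Isg15: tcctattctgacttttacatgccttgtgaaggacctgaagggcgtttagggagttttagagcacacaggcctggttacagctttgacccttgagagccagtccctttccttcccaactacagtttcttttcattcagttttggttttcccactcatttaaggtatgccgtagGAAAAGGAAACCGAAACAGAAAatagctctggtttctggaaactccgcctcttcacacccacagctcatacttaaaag
Bst2: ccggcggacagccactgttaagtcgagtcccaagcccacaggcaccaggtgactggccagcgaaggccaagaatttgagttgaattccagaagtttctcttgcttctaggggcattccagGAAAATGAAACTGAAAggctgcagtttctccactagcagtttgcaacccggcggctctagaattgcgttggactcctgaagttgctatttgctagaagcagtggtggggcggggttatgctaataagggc
The copies of Isg15 (3) and of Bst2 (2) overlap one another. The core was in 4 of the 10 list promoters with an entry (40%), the other being Ifit3, and in 2.49% of the promoters of tested genes, on either strand. Ifit1 itself stood between 6.21 and 13.8 CPM in the restricted and between 10.5 and 16.7 CPM in the freely fed mice (-0.45, adjusted p 0.695).

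Of 22 endothelial and blood-brain barrier genes, 0 passed the adjusted test. At an unadjusted p under 0.05, 5 were higher and 5 lower, against 3.25% and 3.51% of all genes. In the edgeR fit over all brain libraries these counts were 2 and 1. The transporters Slco1a4 (0.43, SE 0.094, edgeR adjusted p 0.376), Abcg2 (0.41, adjusted p 0.325) and Tfrc (0.30, adjusted p 0.481), which carry solutes, drugs and iron-loaded transferrin, were among the higher ones, with Mfsd2a and Slc2a1. The junction gene Cldn5 stood at 14.9, 12.4, 17.3, 13.6 and 11.8 CPM in the restricted and 18.2, 20.9, 21.5 and 20.7 CPM in the freely fed mice (-0.52, SE 0.12, adjusted p 0.376), and Kdr, the receptor of VEGF, was at -0.44 (adjusted p 0.669). Cdh5, Pecam1 and Bsg were the other lower members. Alpl, an alkaline phosphatase of brain vessels, stood at 13.8, 17.95, 13.95, 11.5 and 9.32 CPM against 21.1, 21.1, 18.3 and 21.2 CPM (-0.72, SE 0.14, adjusted p 0.278), free of overlap by a small margin between aDR mouse 62 and AL mouse 68.

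Among glia, 4 of 20 astrocyte genes were higher (Etnppl, Htra1, Gjb6 and Glul) and 1, Fabp7, lower (-0.51, adjusted p 0.636) at an unadjusted p under 0.05, and the list's median was -0.028. The shares at such a p over all genes were 3.25% higher and 3.51% lower. Among the myelin genes, Ugt8a (-0.39) and Fa2h (-0.27), enzymes of myelin lipids, were lower at an unadjusted p under 0.05, and the median of the 16 tested was -0.0065. Ddit4l, an inhibitor of mTOR signalling, stood at 12.99, 6.90, 15.9, 14.7 and 12.1 CPM against 21.6, 21.9, 19.98 and 22.7 CPM (-0.68, SE 0.13, adjusted p 0.278). The 24 nuclear genes of the respiratory chain, the 28 of the cytosolic ribosome and the 23 of insulin, IGF, FoxO and mTOR signalling had 0 members with an unadjusted p under 0.05.

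**Figure D4:**
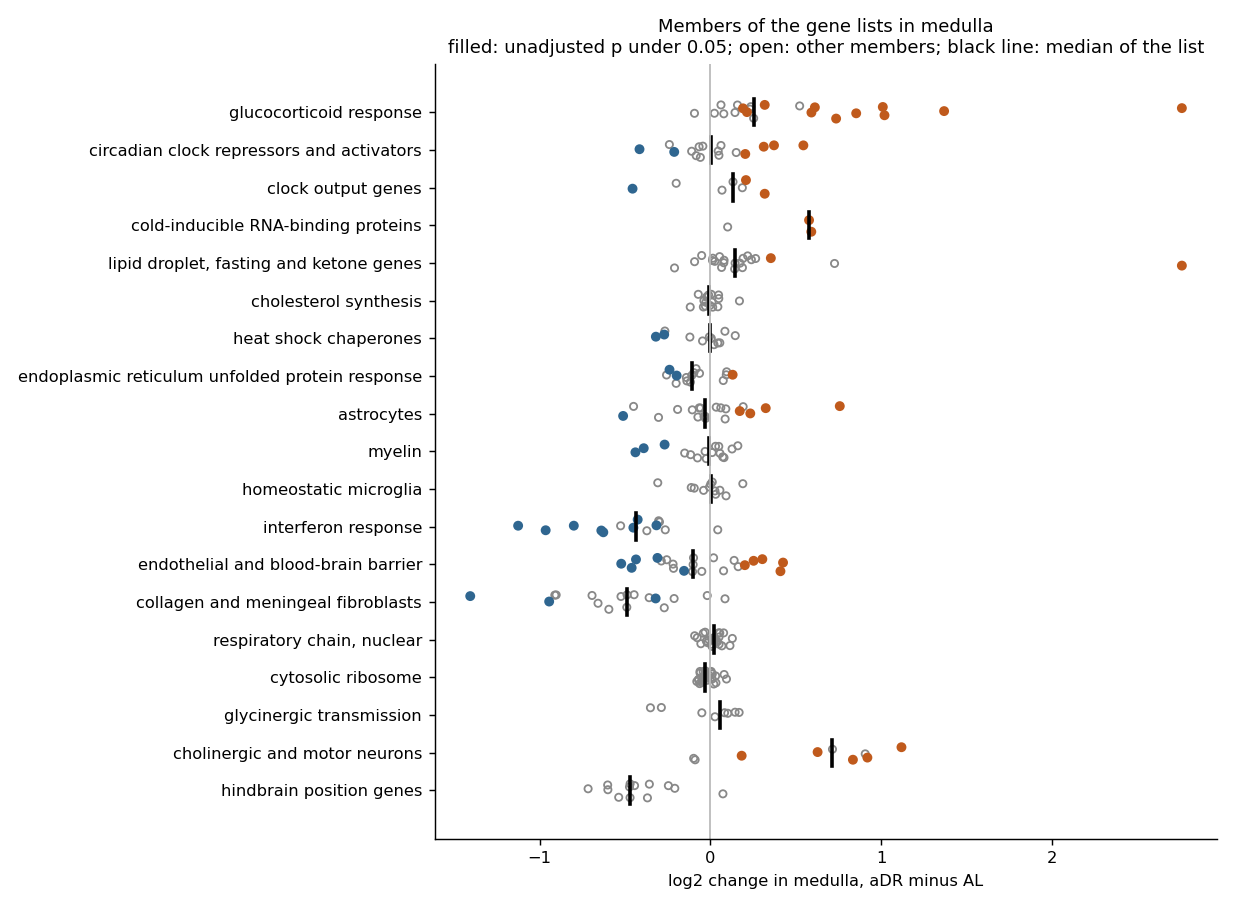
Log2 change of restricted against freely fed medulla (x axis) for the tested members of 19 gene lists (rows); filled points have an unadjusted p under 0.05, open points do not, and the black line is the list's median. The glucocorticoid list extends to the right up to Plin4 at 2.76, 13 of the 14 interferon genes lie left of 0, with a median of -0.44, and the cholinergic list has a median of 0.72.

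Cholinergic and motor neuron genes, of which 0 passed the adjusted test, lay mostly above 0 and varied with the position markers. Of 9 tested, 5 were higher and 0 lower at an unadjusted p under 0.05, with a median of 0.72 and with 0 members free of overlap. Among all genes, 3.25% were higher at such a p. Chat, which makes acetylcholine, stood at 72.6, 15.9, 55.6, 60.3 and 40.5 CPM in the restricted and 42.1, 32.3, 31.8 and 11.6 CPM in the freely fed mice (0.84, SE 0.34, edgeR adjusted p 0.698). The 3 highest libraries, aDR mice 61, 64 and 65, held the lowest sums of caudal Hox genes, and aDR mouse 62 and AL mouse 69, the lowest in Chat, held the highest. With the caudal Hox sum as a covariate, chosen after seeing the data, 0 of the 9 had an unadjusted p under 0.05, with a median of 0.39, and 33 genes were called for the Hox term itself. The count was also 0 without aDR mouse 61 or 65, 1 without aDR mouse 64, 3 without AL mouse 66 or 69 and 2 with DESeq2 or in the edgeR fit over all brain libraries. It was 7 without aDR mouse 62, with voom sample quality weights or without the 3 pituitary-positive libraries (median 1.08), and 6 without AL mouse 63 or aDR mouse 67. With the same covariate the change of Plin4 in medulla was 2.82 (adjusted p 0.0262), still called, and that of Fmo2 in medulla was 2.06 (adjusted p 0.0262).

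Genes of the dorsal vagal appetite circuit gave 2 higher and 3 lower members of 18 at an unadjusted p under 0.05. The shares over all genes were 3.25% and 3.51%. Pyy, a satiety peptide, was 2.36 higher (adjusted p 0.669), but it stood at 4.39, 6.65 and 5.30 CPM in aDR mice 61, 64 and 65 and at 0 and 0.34 CPM in aDR mice 62 and 67, the split of the caudal Hox genes. Pomc, a precursor of melanocortins and a main product of the pituitary, was at 817 CPM in aDR mouse 67 and 53.1 CPM in aDR mouse 62, and at 1.70 to 13.6 CPM in the other 7. Without the 3 pituitary-positive libraries its change was -0.016, against 4.89 with them. Cckar, a receptor of cholecystokinin, stood between 0.69 and 2.27 CPM against 1.81 to 2.89 CPM (-0.87, adjusted p 0.669). Cerebellar genes were lower in all 9 tested members, with a median of -0.81, which was -0.29 without AL mouse 66 and -0.38 without the 3 pituitary-positive libraries. At an unadjusted p under 0.05, 3 cerebellar members were lower, 1 without aDR mouse 65 or AL mouse 66, 5 without AL mouse 63 or 69, and 8 in the edgeR fit over all brain libraries. Collagen and meningeal genes had a median of -0.49, with 3 of 17 lower at an unadjusted p under 0.05. Without aDR mouse 61 it was 9 (median -0.89), and without AL mouse 69 it was 1 (median -0.16). It was also 1 without aDR mouse 65 or 67 or AL mouse 66, and without the 3 pituitary-positive libraries. The summed cerebellar list ranged from 236 to 435 CPM in restricted and 274 to 670 CPM in freely fed mice, with AL mice 66 (634 CPM) and 69 (670 CPM) the highest (exact permutation p 0.159, adjusted over 12 measures 0.724). In AL mouse 69 Cbln3 was at most 2.11 CPM, and its caudal Hox sum (164 CPM) was the highest of the freely fed mice. Zic1, a member of the list, went up with the Hox covariate (0.47, edgeR unadjusted p 0.0070, adjusted 0.186). The sum cannot tell cerebellar tissue from position within the medulla. The summed blood list was 99.1 to 129 CPM in restricted and 132 to 155 CPM in freely fed mice, without overlap (exact permutation p 0.0159, the smallest the design allows, adjusted 0.190). Its 4 haemoglobin genes alone summed to 2.03 to 27.4 CPM and 1.78 to 45.4 CPM (exact permutation p 0.571, adjusted 0.724). The part of these tissues in the other results, the vessel and interferon groups included, was not tested.

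The diet difference in medulla was then set against that in the other 14 brain regions of the same mice, with 1 difference per mouse. Of 14006 genes, 0 were called by limma (0% of those tested, smallest adjusted p 0.9998), and 442 (3.16%) had an unadjusted p under 0.05. Ciart had a change of 0.31 in medulla and 0.79 in the other regions, on the log2 CPM scale, a difference of -0.48 (SE 0.079, unadjusted p 1.52e-04). Leaving out 1 mouse at a time kept that difference between -0.53 and -0.44. Dbp and Per1, further genes of the clock, were also nearer 0 in medulla, at 0.029 and 0.031 against 0.40 and 0.35 elsewhere (unadjusted p 0.0128 and 0.0458). Fmo2 stood at 1.79 against 1.33 (difference 0.46, unadjusted p 0.0011), Plin4 at 2.65 against 1.98 (0.67, unadjusted p 0.0053) and Sgk1 at 0.97 against 0.59 (0.37, unadjusted p 0.0101). Rbm3 (0.62 against 0.70) and Fkbp5 (0.57 against 0.56) had differences of -0.079 and 0.0079. The glucocorticoid list had a median of 0.27 in the other regions, beside 0.25 in the edgeR fit of medulla. Ifitm3 was at -0.80 in medulla and -0.19 elsewhere (unadjusted p 0.0027), and the interferon list had a median of 0.013 in the other regions. None of these differences passed the adjusted test.

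**Figure D5:**
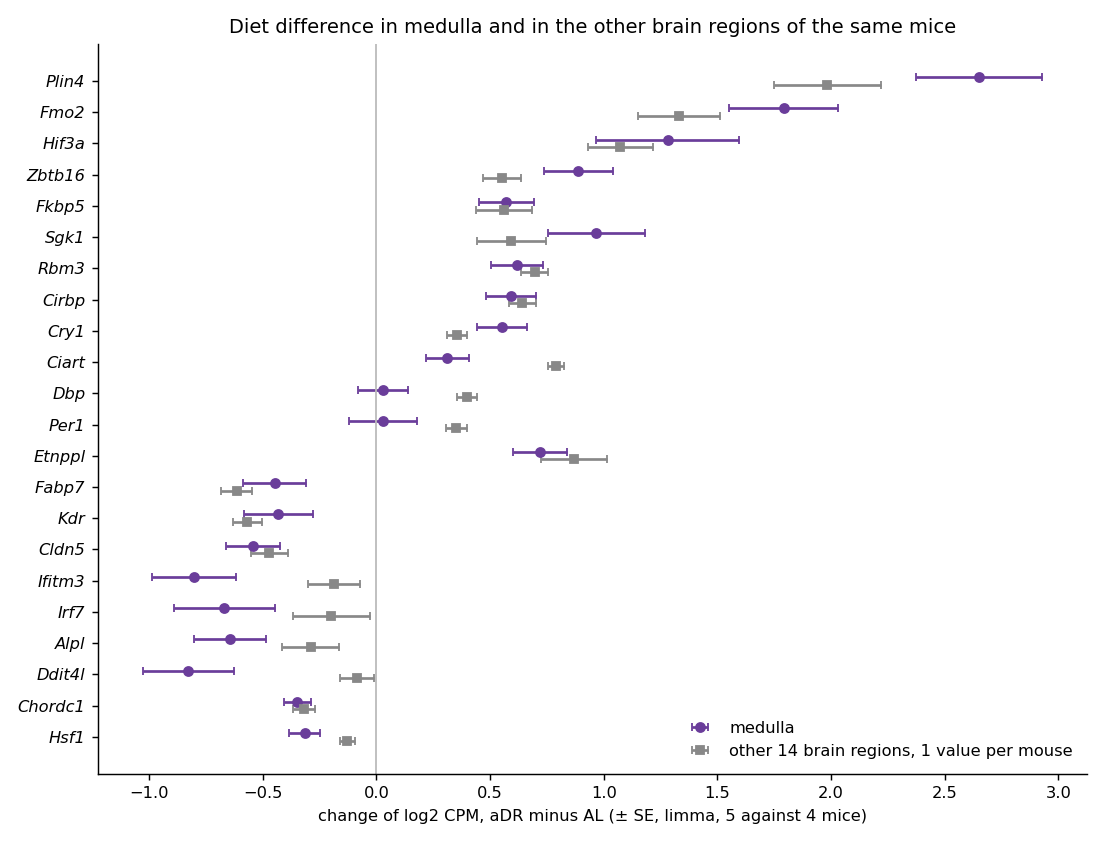
Change of log2 CPM between restricted and freely fed mice (x axis, ± SE) for 22 genes (rows) in medulla (circles) and in the other 14 brain regions with 1 value per mouse (squares), 5 against 4 mice. Plin4 and Fmo2 lie farther right in medulla, and Ciart, Dbp and Per1 lie nearer 0, but no difference passed the adjusted test.

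Against pons, the neighbouring region, 0 genes were called (0%, limma, smallest adjusted p 0.994) and 304 (2.17%) had an unadjusted p under 0.05. Irf7 was at -0.67 in medulla and 0.39 in pons, a difference of -1.06 (unadjusted p 0.0015), and Ifitm3 at -0.80 and 0.26 (-1.06, unadjusted p 0.0095). Leaving out 1 mouse at a time kept these differences between -1.17 and -0.93 and between -1.38 and -0.88. Plin4 was at 2.65 and 2.01 (unadjusted p 0.106). Other lists also had medians away from 0 in pons itself. They were 3.48 for pituitary and muscle, 0.59 for hindbrain position, 0.48 for glucocorticoid, 0.39 for collagen and meningeal and -0.55 for cholinergic genes. Nuclear respiratory chain genes were at -0.019, and the median over all genes in pons was -0.017. The part of these differences in the comparison with pons was not tested.

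The second intervention of the series, injection of plasma of young mice (YMP, 3 mice) or saline (PBS, 4 mice), was given to male mice, so that sex and experiment cannot be told apart. The diet change in medulla minus the plasma change gave 0 called genes of 14283 (0%, edgeR, smallest adjusted p 0.184) and 1416 (9.91%) with an unadjusted p under 0.05. Etnppl was 0.76 higher with restriction and 0.39 lower with plasma, a difference of 1.15 (unadjusted p 2.44e-05). Plin4 was 0.36 higher with plasma, a difference of 2.41 (unadjusted p 8.64e-05). Zbtb16 and Sgk1 were higher under both, by 0.61 and 1.20 with plasma, and Irf7 was lower under both, at -1.11 with plasma. For plasma itself this fit called 0 of the 14283 genes, these 3 included. The interferon list summed to 426 CPM in PBS mouse 72, 226 to 286 CPM in the other PBS mice and 175 to 202 CPM in YMP mice. Caudal Hox sums were 2.63 to 48.8 CPM in PBS and 81.9 to 202 CPM in YMP medulla, without overlap. All 13 tested hindbrain position genes were higher with plasma (median 1.47). Choroid plexus genes summed to 360 CPM in PBS mouse 84 and to 49.8 CPM in PBS mouse 80. Plasma and position within the medulla cannot be told apart in these values.

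How many genes were called depended on the method. DESeq2 called 16, 12 higher and 4 lower, among them Plin4, Fmo2, Etnppl, Zbtb16, Cirbp, Rbm3, Fkbp5, Cry1 and, on the lower side, Chordc1, Ddit4l, Alpl and Ifitm3. A limma voom fit over all 131 brain libraries with the mouse as replicate block called 18, Plin4, Fmo2, Rbm3, Cirbp and Zbtb16 among them, together with Hoxb5, Hoxb6, Pyy and Slc18a3, the last a member of the cholinergic list.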

How the data were processed

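Counts are the authors' deposited whole-number read counts per gene, 21076 genes by 238 libraries, from RNA of homogenised tissue (Smart-Seq2 cDNA, Nextera XT, unstranded, per the labels' protocols). The submitters' processing notes name Trim Galore 0.3.7, STAR 2.5.3a, DESeq2 and GRCm38, with no role or order; the counting program and annotation are not given in the sources used here. Without strand, genes overlapping another gene are uncertain. CPM were computed here.

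Medulla aDR and AL were compared with edgeR 4.0.16 (R 4.3.3; quasi-likelihood, TMM, filterByExpr with minimum count 10 and minimum total count 15, Benjamini-Hochberg, adjusted p under 0.05). SEs are the change divided by the square root of F. Differences from other regions used limma 3.58.1 on log2 CPM (prior count 2): medulla minus the mouse term of the other 14 regions, or minus pons. DESeq2 1.42.0 was an alternative. Library measures used exact two-sided permutation tests of 126 splits (smallest p 0.0159). Replicate pairs differed by more than sampling noise (chi-square per degree of freedom 2.68 to 15.1). Scripts were tested on simulated data. Library totals and PCR without molecular identifiers limit precision.

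Genes named were those called, the 12 higher and 12 lower of smallest p with a mean of at least 5 CPM, up to 4 of smallest p per list, genes known from the other regions, and markers; list members outside this rule were named after their values were seen. Members and lists were chosen with earlier results of these data known. Labels call the samples separate mice.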

Additional observations from a re-analysis of the deposited data

Results flagged for a closer look

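Of 182 groups of library values examined for 1 sample far from the others, 14 held one, where chance gives about 9.1. In the restricted mice these were the mitochondrial share of mouse 62 (3.14%), the summed blood list of mouse 61 (99.1 CPM), Cirbp (178 CPM) and Nr1d1 (70.4 CPM) of mouse 62, Hsf1 of mouse 65 (32.8 CPM), Angptl4 (5.79 CPM) and Pomc (817 CPM) of mouse 67, and Irf7 of mouse 64 (7.02 CPM). In the freely fed mice they were Cry1 of mouse 69 (25.0 CPM), Alpl of mouse 68 (18.3 CPM) and 4 values of mouse 66: the pituitary and muscle list (996 CPM), the pituitary hormone sum (981 CPM), Pomc (13.6 CPM) and Cbln3 (15.4 CPM).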

How the results depend on the processing

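The medulla count of 1 called gene was 16 with DESeq2, 2 with no filter on low counts, 0 with voom sample quality weights, 7 over all brain libraries without and 18 with the mouse as replicate block (consensus correlation 0.0323), 2 with the caudal Hox covariate and 0 without the 3 pituitary-positive libraries. Leaving out 1 library gave 0 to 3 (3 without aDR mouse 67). The block pairs regions of 1 mouse; the diets share no mouse. The 947 genes at an unadjusted p under 0.05 became 626 without AL mouse 69, 1480 with quality weights and 589 over all brain libraries without the block. The change of Plin4 ranged from 2.41 to 2.97, with adjusted p 0.215 under quality weights. Interferon members at an unadjusted p under 0.05 were 1 in both fits over all brain libraries and 5 with quality weights. In both fits over all brain libraries 0 myelin genes and 2 astrocyte genes on the higher side had such a p, and 5 astrocyte genes were lower without AL mouse 63. Vagal appetite genes were 0 higher and 2 lower with DESeq2. In the lists of cholesterol synthesis, homeostatic microglia, corticosteroid receptors, respiratory chain and insulin signalling, which had 0 such members, leaving out 1 library gave at most 1. Against plasma, 0 became 13 with DESeq2, and 0 to 6 without 1 library (6 without PBS mouse 76); against the other regions and pons it was 0 in every alternative run. The sign turned for Per1 in medulla without AL mouse 66 (-0.015, to 0.22 over libraries left out) and without the pituitary-positive libraries (-0.0096), for C4b in medulla without AL mouse 69 (0.025, from -0.69 over libraries left out) and for Pomc in medulla with quality weights (-0.20) and without the pituitary-positive libraries (-0.016). The cause was not tested. The depth of aDR mouse 62 limits genes of few reads.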
